A study of Mus musculus with 6 samples.

Results

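The integrated stress response and serine synthesis genes described here are 10 mouse genes taken by symbol from a deposited read count table of 24454 symbols: Atf4, Atf3, Ddit3, Nupr1, Asns, Phgdh, Psat1, Psph, Shmt2 and Mthfd2. RNA came from macrophages of the peritoneal cavity, kept in culture, of wild-type male C57BL6/J mice aged 6 to 8 weeks, and libraries were made from polyA-enriched RNA. The 6 libraries form 3 groups of 2. SGA360+LPS received SGA360, which binds the aryl hydrocarbon receptor (AHR), at 10 µM for 1 h and then the bacterial endotoxin LPS at 10 ng/ml for 4 h. LPS received the endotoxin alone at that dose and time, and vehicle was kept for 5 h. No group with SGA360 alone was analysed here, and the labels name no solvent pretreatment for LPS. Nothing in them tells if replicates were separate cultures or animals. The p-values therefore cover just the spread among these samples, which may be technical.

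In the integrated stress response, kinases that sense amino acid shortage, viral RNA, haem loss or unfolded proteins phosphorylate the translation factor eIF2. General translation then falls, while the mRNA of the transcription factor ATF4 is translated more. ATF4 and its partners are known to raise genes of amino acid synthesis, amino acid uptake and tRNA charging. Serine is made from a glycolytic intermediate by the enzymes encoded by Phgdh, Psat1 and Psph, in that order, and Shmt2 and Mthfd2 encode mitochondrial enzymes that pass its carbon to folate. In mouse macrophages, serine synthesis is known as a source of glycine and glutathione during endotoxin stimulation.

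Total counts per library lay between 7726973 and 9529817. Vehicle replicate 1 stood apart, with reads on 10001 symbols and 4.92% of them on the ribosomal RNA gene Rn45s. The other 5 libraries had reads on 12282 to 12643 symbols and 0.22% to 0.684% on Rn45s. Of 8 macrophage markers 7 were detected, with the lysozyme gene Lyz2 at 18250 to 21330 CPM in SGA360+LPS, 18840 to 22240 CPM in LPS and 18910 to 20610 CPM in vehicle. Other macrophage markers differed between groups: Adgre1, which encodes F4/80, was at 1098 to 1218 CPM, 1219 to 1316 CPM and 487 to 543 CPM in the same groups, and the receptor gene Csf1r at 601 to 663 CPM, 593 to 613 CPM and 708 to 817 CPM. Itgam, which has several transcript rows, was listed at 0 throughout. Fibroblast markers were present too, summing to 4737 to 5208 CPM in SGA360+LPS, 4418 to 4725 CPM in LPS and 4680 to 5379 CPM in vehicle over 6 genes, none of them at 0. The 8 mesothelial markers, none at 0, summed to 346 to 365 CPM, 352 to 354 CPM and 491 to 517 CPM in the same groups. The 5 dendritic cell markers, none at 0, summed to 223 to 224 CPM, 210.3 to 224 CPM and 142 to 145 CPM. Mast cell and eosinophil markers (3 of 7 at 0, Kit, Epx and Siglecf) summed to at most 63.3 CPM in any library, B cell markers (1 of 5 at 0, Cd79b) to at most 33.3 CPM, neutrophil markers (2 of 6 at 0, S100a9 and Ly6g) to at most 16.2 CPM and T cell markers (2 of 6 at 0, Cd8a and Lck) to at most 7.93 CPM. In such bulk samples fewer cells of a type and less RNA per cell cannot be told apart.

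Promoter sequences of 300 bases (250 before the start site and 50 from it on) were available from RefSeq on build GRCm38.p6 for all 10 genes. Those of the stress regulators Atf3 and Nupr1 and of the enzyme genes Asns, Mthfd2 and Phgdh are shown, since the results below turn on these genes. The capitals mark the letters TGATGNAA on either strand, the core of the element at which ATF4 and C/EBP proteins are known to bind together.
Atf3: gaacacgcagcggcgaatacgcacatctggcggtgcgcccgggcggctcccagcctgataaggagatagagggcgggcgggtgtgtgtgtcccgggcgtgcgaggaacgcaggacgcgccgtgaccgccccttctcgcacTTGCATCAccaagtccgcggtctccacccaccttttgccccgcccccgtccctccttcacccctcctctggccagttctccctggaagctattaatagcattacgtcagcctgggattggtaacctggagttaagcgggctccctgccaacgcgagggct
Nupr1: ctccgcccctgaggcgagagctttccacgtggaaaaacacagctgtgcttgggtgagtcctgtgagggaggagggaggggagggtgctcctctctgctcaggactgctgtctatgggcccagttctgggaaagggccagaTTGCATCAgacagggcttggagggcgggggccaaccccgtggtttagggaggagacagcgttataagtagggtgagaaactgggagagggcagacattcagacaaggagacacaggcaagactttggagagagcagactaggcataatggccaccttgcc
Asns: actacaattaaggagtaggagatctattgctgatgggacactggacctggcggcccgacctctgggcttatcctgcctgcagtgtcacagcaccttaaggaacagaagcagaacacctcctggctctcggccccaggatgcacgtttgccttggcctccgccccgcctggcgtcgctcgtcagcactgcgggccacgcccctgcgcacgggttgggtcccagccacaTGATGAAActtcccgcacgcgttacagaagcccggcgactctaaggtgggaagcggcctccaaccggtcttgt
Mthfd2: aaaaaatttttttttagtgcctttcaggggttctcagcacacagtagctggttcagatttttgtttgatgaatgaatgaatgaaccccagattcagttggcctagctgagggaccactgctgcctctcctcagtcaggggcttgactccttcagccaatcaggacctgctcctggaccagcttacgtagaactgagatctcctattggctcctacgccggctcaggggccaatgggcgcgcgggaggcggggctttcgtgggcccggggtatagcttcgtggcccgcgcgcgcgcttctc
Phgdh: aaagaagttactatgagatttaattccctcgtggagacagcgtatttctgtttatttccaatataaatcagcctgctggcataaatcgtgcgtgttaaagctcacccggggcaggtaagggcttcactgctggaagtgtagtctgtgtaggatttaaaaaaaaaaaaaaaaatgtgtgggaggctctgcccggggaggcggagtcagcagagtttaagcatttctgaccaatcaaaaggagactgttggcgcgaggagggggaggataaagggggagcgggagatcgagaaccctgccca

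All these windows lie on the minus strand, at chr1:191183284-191183583 (Atf3), chr7:126625421-126625720 (Nupr1), chr6:7693160-7693459 (Asns), chr6:83317555-83317854 (Mthfd2) and chr3:98339920-98340219 (Phgdh). The letters stood at bases 141 to 148 of the Atf3 and Nupr1 windows and at bases 228 to 235 of the Asns window, as TTGCATCA, TTGCATCA and TGATGAAA. The windows of the other 7 genes held no match, the second window of Psat1 included. Over all 32851 promoter windows of this length in the table, 3.97% held the letters. A second motif, the cyclic AMP response element TGACGTCA, which reads the same on both strands, was found in 1.79% of all windows and in none of the windows of the 10 genes. A match is a description of the letters and not a bound site.

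Only 6 of the 10 genes could be measured. Atf3, Nupr1, Asns, Mthfd2, Phgdh and Psph each have 1 transcript row and between 261 and 4334 reads per library. Atf4, Ddit3, Psat1 and Shmt2 each have 2 transcript rows and were left out by the filter on low counts. Atf4, the central transcription factor of the response, had 2 and 0 reads in SGA360+LPS, 1 and 1 in LPS, and 0 and 1 in vehicle. Ddit3, which encodes the stress-induced factor CHOP, had 1 and 0, 2 and 3, and 0 and 2 reads in the same order of groups. Psat1, the aminotransferase of serine synthesis, had 4 and 5, 5 and 2, and 0 and 3 reads, and Shmt2, the mitochondrial serine hydroxymethyltransferase, had 0 reads in all 6 libraries.

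These low counts say little about the genes. In the whole table, the 5639 symbols with several transcript rows took 1.87% of the reads. Of these symbols 51.0% had no read in any library, and of the 18815 symbols with a single row 37.1% had none. The sources used here give no rule for reads shared by transcripts of a gene, so no statement on the expression of these 4 genes is made and no fold is given for them.

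**Figure D1:**
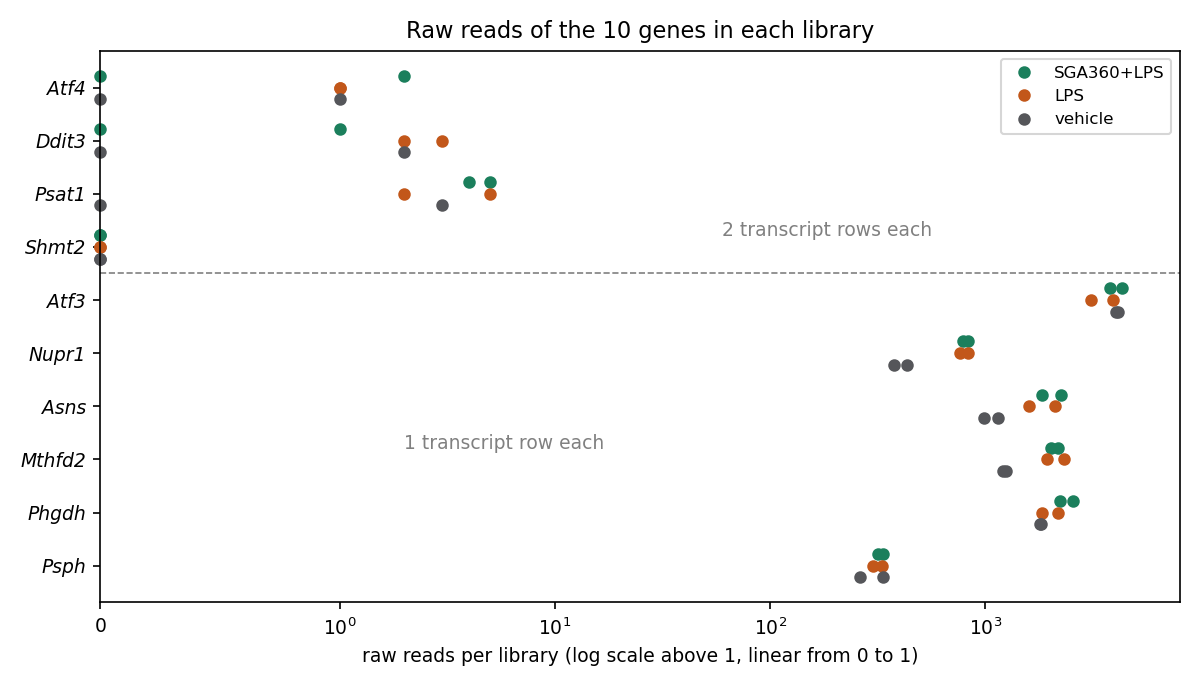
Raw reads of each gene in each library, on a log axis above 1 read and a linear one from 0 to 1. Each point is 1 library, coloured by group, and the dashed line parts the 4 genes with 2 transcript rows, at 0 to 5 reads, from the 6 genes with 1 row, at 261 to 4334 reads.

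In build mm10, the deposited table places the transcript of Atf3 (NM_007498) on chromosome 1 from 191170297 to 191183333, and that of Nupr1 (NM_019738) on chromosome 7 from 126623246 to 126625470. Asns (NM_012055) spans chromosome 6 from 7675171 to 7693182, and Mthfd2 (NM_008638) the same chromosome from 83305704 to 83317604. Phgdh (NM_016966) spans chromosome 3 from 98313171 to 98339969, and Psph (NM_133900) chromosome 5 from 129765558 to 129787253. All are annotated as protein-coding genes on the minus strand, and counts are of reads assigned to the transcript. The start of Psph overlaps Cct6a on the opposite strand, which holds 19556 reads over the libraries, and the span of Mthfd2 overlaps the unclassified transcript Gm43890 on its own strand. With the use of strand likewise unstated there, the reads of overlapping genes cannot be separated.

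LPS was first set against vehicle, for the effect of endotoxin without the AHR ligand. The stress regulator Nupr1 and the enzyme genes Asns and Mthfd2 were each about doubled, Phgdh was higher by a smaller step, and Psph and Atf3 did not pass the test. In all, 4 of the 6 tested genes rose and 0 fell (adjusted p under 0.05, Benjamini-Hochberg, in the quasi-likelihood test of edgeR). Of all 9389 genes tested, 19.4% rose and 17% fell, 36.4% together. The count was 4 without vehicle replicate 1 too. Their median log2 fold change was 0.63, against −0.01 over all genes tested. Levels are given in CPM (reads of each gene relative to the TMM-scaled library size), and a fold change as log2 with its standard error (SE).

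Nupr1 encodes a small chromatin-associated protein induced by many stresses. It stood at 101 and 90.5 CPM in LPS, against 42.1 and 45.2 CPM in vehicle. Both LPS libraries lay more than 2-fold above the vehicle mean of 43.7 ± 2.15 CPM (SD, n = 2). The log2 fold change was 1.13 (SE 0.10; adjusted p = 1.25e-05 by edgeR), and it was 1.10 without vehicle replicate 1.

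Asns encodes asparagine synthetase, which makes asparagine from aspartate and glutamine. Its levels were 213 and 229 CPM in LPS, against 110.1 and 119 CPM in vehicle. The groups were far apart relative to their spread, and the log2 fold change was 0.95 (SE 0.08; adjusted p = 8.11e-06 by edgeR). Without vehicle replicate 1 it was 0.91.

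Mthfd2 encodes the mitochondrial methylenetetrahydrofolate dehydrogenase and cyclohydrolase, which is low in most adult tissues and high in dividing cells. Levels were 257 and 254 CPM in LPS, against 135 and 129.9 CPM in vehicle. Again every LPS library lay above both vehicle libraries, the log2 fold change being 0.95 (SE 0.07; adjusted p = 2.82e-06 by edgeR), or 0.99 without vehicle replicate 1. Among the 9389 genes tested, 92.6% had a lower fold change than Nupr1, 90.8% than Asns and 90.7% than Mthfd2.

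Phgdh encodes phosphoglycerate dehydrogenase, the first enzyme of serine synthesis. It was at 243 and 238 CPM in LPS, against 201 and 188 CPM in vehicle. The groups did not overlap, and the log2 fold change was 0.31 (SE 0.07; adjusted p = 0.00559 by edgeR). Scaled by library totals alone, Phgdh stood at 0.18 and was not called (adjusted p = 0.0636; over the 15 alternatives this p ran between 0.000484 and 0.0636). That scaling moved the median log2 fold change of all genes to −0.14 and the calls over all genes to 1278 higher and 2178 lower, against 1820 and 1593 with TMM. Nupr1, Asns and Mthfd2 were called under it as well.

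Psph encodes phosphoserine phosphatase, the last enzyme of serine synthesis. It was at 40.04 and 36.2 CPM in LPS, against 29.2 and 34.8 CPM in vehicle, so that the groups lay close to each other without overlap. The log2 fold change of 0.25 (SE 0.15) did not pass the test (adjusted p = 0.214 by edgeR). Without vehicle replicate 2 it was 0.40 and called, and without vehicle replicate 1, the library that stood apart, it was 0.15 and not called. With library totals alone it was 0.12 (adjusted p = 0.589 by edgeR).

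Atf3 encodes a stress- and endotoxin-inducible transcription factor that, in mouse macrophages, is known to limit cytokine genes. Its levels were 414 and 430.4 CPM in LPS, against 463 and 423 CPM in vehicle, and the groups overlapped. The log2 fold change was −0.07 (SE 0.07; adjusted p = 0.466 by edgeR), with a 95% interval from −0.22 to 0.08. It was 0.02 without vehicle replicate 1, and −0.20 and called with library totals alone (adjusted p = 0.0353, in a range up to 0.916), a scaling that also moved the median of all genes down.

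**Figure D2:**
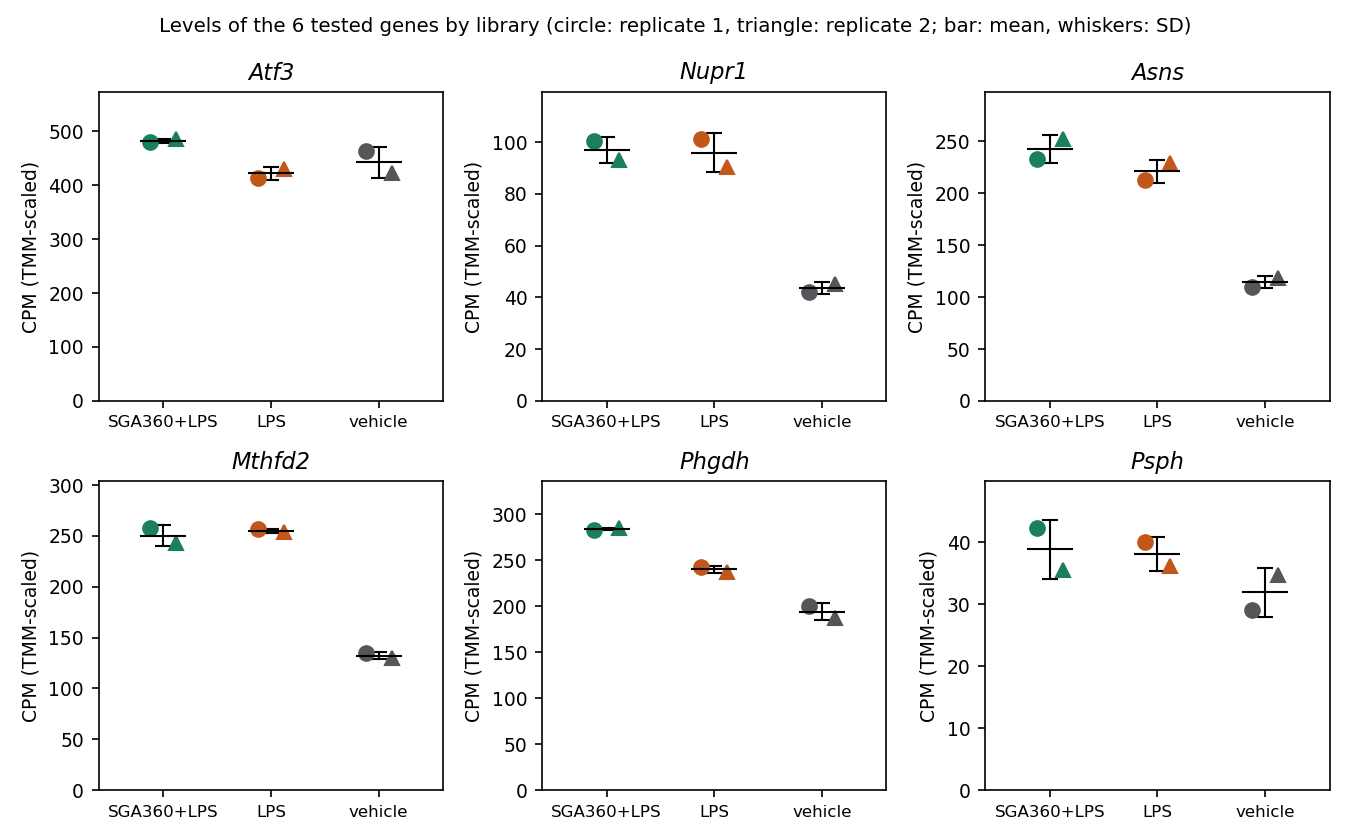
Level of the 6 tested genes in CPM, with a panel a gene and the groups SGA360+LPS, LPS and vehicle from left to right. Circles are replicate 1, triangles replicate 2, the bar is the mean and the whiskers the SD of 2 libraries; Nupr1, Asns and Mthfd2 sit at about 2 times their vehicle level in both LPS-treated groups, while Atf3 stays between 414 and 486 CPM in all libraries.

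SGA360+LPS was then set against LPS, for the effect of the AHR ligand in the presence of endotoxin. None of the 6 tested genes was called by edgeR, and DESeq2 and limma-voom called 0 of them as well. Over all genes tested 0% rose and 0.0746% fell. An unadjusted p under 0.05 was found for 2 of the 6, Phgdh and Atf3, and for 2.94% of all genes tested. Neither was called under any of the 15 alternatives.

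Phgdh was at 283 and 285 CPM in SGA360+LPS, against 243 and 238 CPM in LPS. The groups did not overlap, and the difference of 0.24 on the log2 scale had a 95% interval from 0.09 to 0.39 that is not adjusted for the number of genes (SE 0.07; adjusted p = 1 by edgeR, and between 0.215 and 1 under the alternatives). Atf3 was at 480.1 and 486 CPM in SGA360+LPS, against 414 and 430.4 CPM in LPS. It too was higher in both SGA360+LPS libraries, with a log2 fold change of 0.19 and a 95% interval from 0.04 to 0.34 (adjusted p = 1 by edgeR, in a range from 0.338 to 1).

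Asns was at 233 and 252 CPM in SGA360+LPS, against 213 and 229 CPM in LPS, a log2 fold change of 0.13 with a 95% interval from −0.04 to 0.31. Both SGA360+LPS libraries lay above both LPS libraries, but the nearest of them, at 233 and 229 CPM, were closer than the SD within either group. For Asns, Atf3 and Phgdh the groups did not overlap with SGA360+LPS higher, as was so for 19.9% of all genes tested.

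Mthfd2, at 258 and 243 CPM in SGA360+LPS against 257 and 254 CPM in LPS, overlapped between the groups, with a 95% interval of the log2 fold change from −0.18 to 0.13. Nupr1 was at 100.4 and 93.3 CPM in SGA360+LPS, against 101 and 90.5 CPM in LPS, with an interval from −0.20 to 0.23. Psph was at 42.3 and 35.5 CPM, against 40.04 and 36.2 CPM, and had the widest interval of the 6, from −0.29 to 0.35. These intervals bound the differences and do not show that the levels were equal.

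**Figure D3:**
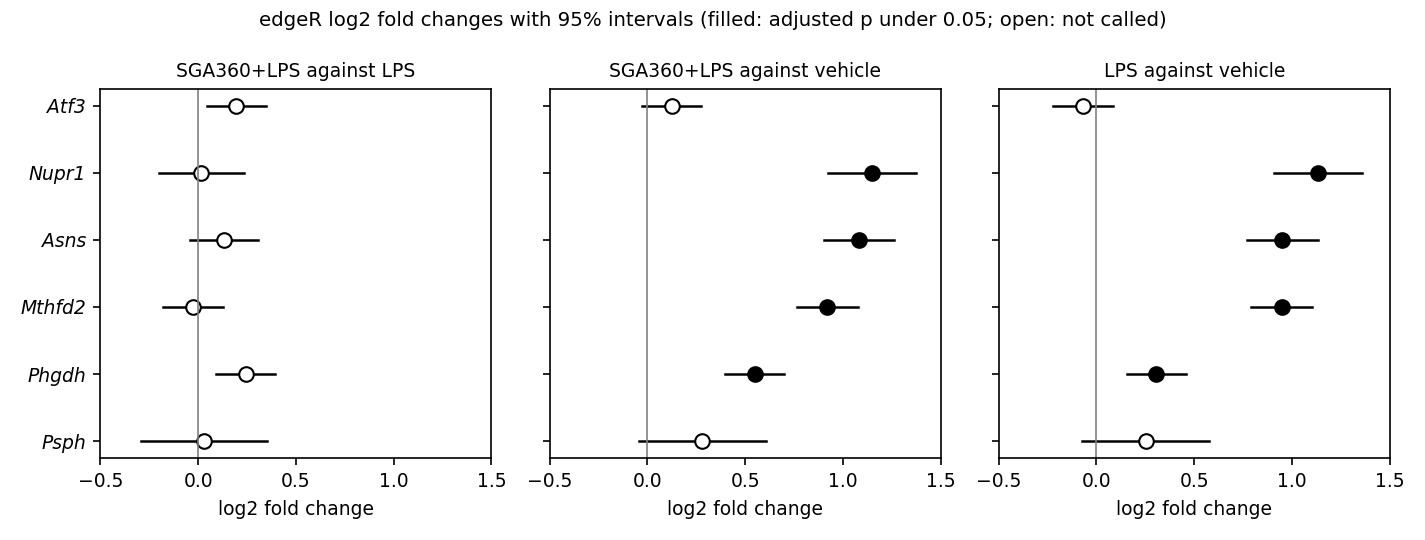
Log2 fold change of the 6 tested genes in each comparison, with 95% intervals that are not adjusted for the number of genes; filled points passed the adjusted threshold. Against LPS the 6 values lie between −0.03 and 0.24 and none is filled, and against vehicle the same 4 genes are filled in both panels.

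The comparison of SGA360+LPS with vehicle uses the same vehicle libraries as that of LPS with vehicle, so the comparisons are not independent. Nupr1, Asns, Mthfd2 and Phgdh rose and 0 of the 6 fell by edgeR, where 17.9% of all genes tested rose and 15.2% fell (33.1% together). Without vehicle replicate 1 the count was 5. With library totals alone the calls over all genes were 1212 higher and 1973 lower, against 1678 and 1429 with TMM, and the median of all genes was −0.12. The log2 fold changes were 1.15 (SE 0.10; adjusted p = 1.2e-05) for Nupr1, 1.08 (SE 0.08; adjusted p = 3.18e-06) for Asns and 0.92 (SE 0.07; adjusted p = 3.81e-06) for Mthfd2. Phgdh, at 284 ± 1.03 CPM in SGA360+LPS and 194 ± 9.25 CPM in vehicle (SD, n = 2), differed by 0.55 on the log2 scale (SE 0.07; adjusted p = 0.000142 by edgeR), and it kept its call under all 15 alternatives. In LPS against vehicle the value of Phgdh was 0.31.

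Psph (0.28, SE 0.15; adjusted p = 0.172) and Atf3 (0.12, SE 0.07; adjusted p = 0.19) did not pass the test by edgeR against vehicle. Psph was 0.43 and called without vehicle replicate 2, but 0.17 and not called without vehicle replicate 1. Atf3 was 0.21 and called without vehicle replicate 1, but 0.08 and not called without vehicle replicate 2. With library totals alone Psph was 0.165 and Atf3 0.013, and neither was called. All 6 tested genes were higher in both SGA360+LPS libraries than in both vehicle libraries, as were 32.9% of all genes tested. In LPS against vehicle this held for 5 of the 6, all but Atf3, and for 33.1% of all genes tested.

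Levels of different genes were compared per length, as CPM per kilobase of the deposited exon length (RPKM). Atf3 was the highest of the 6 in every group, at 244 ± 1.93 RPKM in SGA360+LPS, 213 ± 5.98 RPKM in LPS and 224 ± 14.5 RPKM in vehicle (SD, n = 2). Psph was the lowest, at 25.2 ± 3.1, 24.7 ± 1.76 and 20.7 ± 2.56 RPKM in the same groups. In vehicle the order was Atf3, Phgdh, Nupr1, Mthfd2, Asns and Psph, with Phgdh at 103 ± 4.91 RPKM and Nupr1 at 69.4 ± 3.41 RPKM. In LPS the order was Atf3, Nupr1, Phgdh, Mthfd2, Asns and Psph, with Nupr1 at 152 ± 12.03 RPKM and Phgdh at 128 ± 2 RPKM. Neighbours did not overlap in LPS or vehicle, whereas in SGA360+LPS the libraries of Nupr1 (154 ± 8.01 RPKM) overlapped those of Phgdh (151 ± 0.549 RPKM), and those of Asns (125 ± 6.99 RPKM) overlapped those of Mthfd2 (120.5 ± 4.83 RPKM).

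The genes with a pattern most like that of Phgdh were sought by Pearson's r of log2(CPM + 1) over the 6 libraries among 7357 genes. They were Ppp2r5b (r = 0.995), Arg2 (0.992), Pam (0.991), Slc39a4 (0.991) and Ppard (0.985). Ppp2r5b, which encodes a regulatory subunit of protein phosphatase 2A, was at 81.01 and 79.8 CPM in SGA360+LPS, 72.6 and 71.6 CPM in LPS, and 61.2 and 58.2 CPM in vehicle. Arg2, the mitochondrial arginase gene, was at 11.1 and 10.9, 7.32 and 7.54, and 4.02 and 2.91 CPM in the same groups. Such values are a description of 6 libraries in 3 groups, picked as the highest of many. The same search for Atf4 could not be made at 0 to 2 reads per library.

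Of the eIF2 kinases, phosphatase subunits and translation factors of the response, 7 of 12 tested genes rose and 1 fell in LPS against vehicle by edgeR, with a median log2 fold change of 0.32 (−0.01 over all genes tested). Over all genes tested 19.4% rose and 17% fell in this comparison, and 17.9% rose and 15.2% fell in SGA360+LPS against vehicle. Ppp1r15a encodes GADD34, the inducible subunit that directs eIF2 dephosphorylation, and was at 131 ± 1.12 CPM in LPS and 39.6 ± 5.86 CPM in vehicle (log2 fold change 1.73). The adaptor gene Nck1, whose product takes part in eIF2 dephosphorylation, rose by 1.65, and the kinase gene Eif2ak2, which encodes the interferon-inducible, RNA-sensing kinase PKR, by 1.22. Eif2ak3, which encodes the endoplasmic reticulum kinase PERK, fell by 0.56, and this call was lost without LPS replicate 1 (adjusted p = 0.0639). Eif2ak3 has several transcript rows and is uncertain for that reason. Ppp1r15a was also placed in the list of ATF4 partners below. Against vehicle, 6 of the 12 rose and 1 fell in SGA360+LPS, with Ppp1r15a at 1.72, Nck1 at 1.38, Eif2ak2 at 1.29 and Eif2ak3 at −0.46 (−0.31 and not called without SGA360+LPS replicate 1, adjusted p = 0.222). With library totals alone 3 rose and 1 fell in LPS. Without LPS replicate 1, 4 rose and 0 fell, and the same counts were found in SGA360+LPS without its replicate 1.

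Among partners and feedback regulators of ATF4, 5 of 9 tested genes rose and 1 fell in LPS against vehicle (median 0.72), beside 19.4% and 17% of all genes tested. The bZIP factor gene Batf stood at 2.42 and Cebpd, a C/EBP family gene, at 1.81. Nfe2l2, which encodes the antioxidant regulator NRF2, stood at 0.74 and has several transcript rows. The 1 lower gene, Cebpg, a C/EBP partner of ATF4, was at 95.1 ± 4.91 CPM in LPS and 131 ± 1.66 CPM in vehicle (−0.47, SE 0.08; adjusted p = 0.00136 by edgeR). In SGA360+LPS against vehicle 5 rose and 1 fell too, beside 17.9% and 15.2% of all genes tested. Batf stood at 2.37, Cebpd at 1.79, Ddit4, which encodes an inhibitor of mTORC1, at 0.65 and Cebpg at −0.54.

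In the same list, the known ATF4 targets Trib3 and Chac1 did not pass the test. Trib3, a pseudokinase gene that feeds back on ATF4, was at 40.2 ± 2.29 CPM in SGA360+LPS, 34.9 ± 4.35 CPM in LPS and 35.4 ± 7.5 CPM in vehicle (SD, n = 2), the log2 fold change being −0.02 (SE 0.16; adjusted p = 0.949 by edgeR) in LPS against vehicle. Chac1, a glutathione-degrading enzyme gene, was at 20.1 ± 0.514, 15.6 ± 0.564 and 17.8 ± 4.71 CPM in the same groups (−0.19, SE 0.20; adjusted p = 0.5 by edgeR). Cebpg, Trib3 and Chac1 were named after their values were seen.

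Amino acid transporter genes rose in 4 of 8 tested cases in LPS against vehicle and 0 fell (median 0.38), beside 19.4% and 17% of all genes tested. The cystine and glutamate exchanger gene Slc7a11 went up to 645 ± 72.05 CPM in LPS, against 6.1 ± 1.67 CPM in vehicle. The glycine transporter gene Slc6a9 rose by 0.95 (adjusted p = 0.0796 without LPS replicate 2), Slc7a5, which encodes the large neutral amino acid transporter LAT1, by 0.88 and the glutamine transporter gene Slc1a5 by 0.34 (0.21 and adjusted p = 0.0605 with library totals alone). In SGA360+LPS against vehicle 5 rose and 0 fell, beside 17.9% and 15.2% of all genes tested. Slc7a11 stood at 6.43, Slc6a9 at 1.38 and Slc7a5 at 1.03. Slc1a4, a neutral amino acid transporter gene, stood at 0.69 and was not called without SGA360+LPS replicate 1 or 2 (adjusted p = 0.154 and 0.0671) or with library totals alone (adjusted p = 0.0622). With library totals alone the calls were 3 higher and 1 lower in LPS and 4 higher and 1 lower in SGA360+LPS.

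Aminoacyl-tRNA synthetases, which attach amino acids to tRNA, and the tRNA exporter gene Xpot rose in 10 of 15 tested cases in LPS against vehicle, and 0 fell (median 0.42). Among all genes tested 19.4% rose and 17% fell. The log2 fold changes of the called genes ran from 0.34 (Farsa) to 0.52 (Rars), and those of all 15 from −0.22 (Dars, several transcript rows) to 0.76 (Cars, several transcript rows), neither of which was called. Tars rose by 0.51, Iars by 0.50 and Aars by 0.49. Farsa, Dars and Cars were named after their values were seen. Farsa kept its call under 12 of the 15 alternatives in LPS against vehicle, and under 9 of 15 in SGA360+LPS against vehicle. Its call in LPS was lost without LPS replicate 1 or 2 and with library totals alone. Aars, the alanine enzyme gene, was at 730.4 ± 13.5 CPM in SGA360+LPS, 676 ± 12.03 CPM in LPS and 480.0 ± 4.55 CPM in vehicle. Against vehicle, 11 of the 15 in SGA360+LPS rose and 0 fell (median 0.50), beside 17.9% and 15.2% of all genes tested. Aars stood at 0.61, Tars at 0.59, Rars at 0.58 and Gars at 0.52. With library totals alone 9 rose and 1 fell in each comparison with vehicle.

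Other serine, glycine and folate one-carbon genes were called at about the share of all genes tested or below it: in LPS against vehicle 3 of 17 rose and 2 fell, with a median of 0.02, where 19.4% of all genes rose and 17% fell (36.4% together). Mat2a, which encodes the S-adenosylmethionine synthetase subunit, rose by 0.72 and Dld, the dihydrolipoamide dehydrogenase gene shared by glycine cleavage, by 0.64. The cytosolic formyltetrahydrofolate dehydrogenase gene Aldh1l1 fell by 0.98. The methionine synthase gene Mtr fell by 0.52, but was not called without LPS replicate 1 or 2, SGA360+LPS replicate 1 or 2 or vehicle replicate 2 (−0.25), in DESeq2 or in a fit of these 2 groups alone. Beside 17.9% and 15.2% of all genes tested, 4 rose and 2 fell in SGA360+LPS against vehicle. Aldh1l2, the mitochondrial counterpart of Aldh1l1, stood at 0.70 in it, Mat2a at 0.55 and Aldh1l1 at −0.78 (adjusted p = 0.0692 without SGA360+LPS replicate 2). Shmt1, the cytosolic serine hydroxymethyltransferase gene, stood at 0.80, from 0.39 without vehicle replicate 1 to 1.45 without vehicle replicate 2, and was not called without vehicle replicate 1 or without any 1 of the LPS and SGA360+LPS libraries. The list count was 2 higher and 1 lower in LPS against vehicle in DESeq2, in the 2 groups alone and without any 1 LPS or SGA360+LPS library, and 3 higher and 0 lower in SGA360+LPS without its replicate 2.

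Of other enzymes and stress proteins linked to ATF4, 3 of 14 tested genes rose and 2 fell in LPS against vehicle (median 0.31). This is about the share over all genes tested, of which 19.4% rose and 17% fell. Gdf15, which encodes a secreted stress cytokine, rose by 2.74, and Herpud1, a gene of endoplasmic reticulum protein degradation, by 0.62. The aspartate aminotransferase gene Got1 fell by 0.58 and the autophagy gene Map1lc3b by 0.47. The list count was higher without vehicle replicate 1 or 2, as was the number of calls over all genes tested. In SGA360+LPS against vehicle 5 rose and 2 fell (median 0.43), beside 17.9% and 15.2% of all genes tested. Gdf15 stood at 2.74, Herpud1 at 0.75 and Got1 at −0.55. Gpt2, an alanine aminotransferase gene, was at 0.48 and not called without SGA360+LPS replicate 1 or 2 (adjusted p = 0.0928 and 0.0744) or with library totals alone (adjusted p = 0.066).

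Genes of the ATF6 and IRE1 arms, which serve the unfolded protein response beside the PERK arm, were called lower in 4 of 11 cases and higher in 0 in LPS against vehicle (median −0.20). Over all genes tested 19.4% rose and 17% fell, 36.4% together. The count called either way is near that 36.4%, while the lower calls alone are above the 17%. Sdf2l1, a chaperone partner gene, was at 53.7 ± 1.74 CPM in LPS and 94.8 ± 12.9 CPM in vehicle (log2 fold change −0.82), and the sensor gene Atf6 fell by 0.52. Pdia4 (−0.31) and Edem1 (−0.28) were not called without LPS replicate 1 or 2. The list count was 2 without either LPS replicate and 7 with library totals alone. With SGA360+LPS, 5 fell and 0 rose against vehicle, with Sdf2l1 at −0.93, where 15.2% of all genes tested fell and 17.9% rose. Atf6 (−0.41), Edem1 and Dnajc3 (−0.35 and −0.34) were each not called without SGA360+LPS replicate 2, and Atf6 also not without replicate 1. That count was 3 lower without SGA360+LPS replicate 1, 2 lower without replicate 2, and 2 higher and 6 lower without vehicle replicate 2.

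In SGA360+LPS against LPS, edgeR, DESeq2 and limma-voom each called 0 of the 85 distinct tested genes of these 7 lists, and 4 of them had an unadjusted p under 0.05 by edgeR. Over all genes tested, edgeR called 0.0746%, and 2.94% had an unadjusted p under 0.05. Without vehicle replicate 1, the list count in LPS against vehicle moved most for the other enzymes and stress proteins linked to ATF4. More genes were called over all genes tested in that fit too. The summed mesothelial markers were lower and the summed dendritic cell markers higher in both LPS-treated groups than in vehicle. The part of other cells in the results above was not tested.

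**Figure D4:**
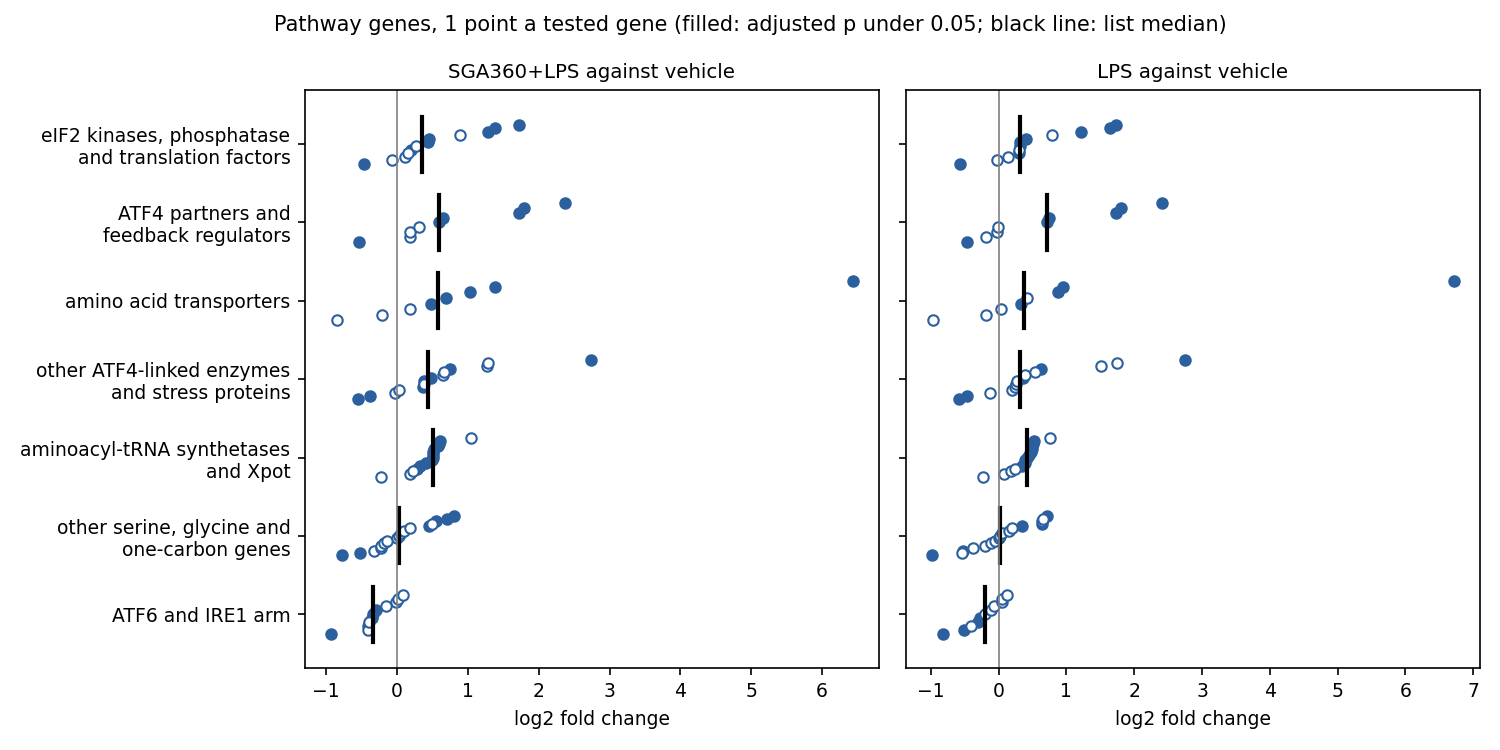
Log2 fold change of each tested gene of the 7 pathway lists in SGA360+LPS against vehicle (left) and LPS against vehicle (right). Filled points passed the adjusted threshold and the black line is the list median, which is highest for the ATF4 partners and below 0 for the ATF6 and IRE1 arm in both panels.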

How the data were processed

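RNA of 6 libraries, 2 each of SGA360+LPS, LPS and vehicle, was sequenced, and the authors deposited whole-number read counts per RefSeq transcript in 34751 rows. Per the submitters' processing notes, the tools were TopHat2 2.0.13 and HTSeq 0.5.4p3, with build mm10. Strand setting and annotation version: not given in the sources used here. Rows were summed per symbol. After filterByExpr (minimum count 10) and TMM scaling, glmQLFit and glmQLFTest of edgeR 4.0.16 were run in R 4.3.3 in 1 model of the 3 groups with 3 residual degrees of freedom. The threshold was an adjusted p of 0.05, by Benjamini-Hochberg across 9389 genes. SE is the absolute log2 fold change over the square root of F, and 95% intervals use the test's total degrees of freedom. RPKM was computed from TMM-scaled counts and the deposited exon length, in the table's own length column. No replicate pair agreed within sampling noise (mean chi-square per gene 3.98 for SGA360+LPS, 5.92 for LPS and 41.6 for vehicle). These means are scaled by library totals and include Rn45s, at 4.92% of reads in vehicle replicate 1 and 0.684% in vehicle replicate 2. A few such genes can raise a mean, so 41.6 is not the spread of a typical gene. Table positions start 1 base early, so 1-based positions are given. The fit was also run on simulated counts, drawn for all groups alike with the spread it had estimated. They do not test it where 1 group has a wider spread than the others. DESeq2 1.42.0 and limma 3.58.1 were alternatives, with another scaling, other filters, other libraries and the most abundant transcript row.

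The 10 genes and the pathway lists were chosen with earlier results of these data known. In the order of the text the lists held 14, 13, 12, 21, 22, 18 and 14 genes. Of these, 12, 9, 8, 15, 17, 14 and 11 were tested, and the list counts cover the tested genes only. All 10 genes are named; of each list, up to 4 called genes by size of the log2 fold change with a mean of at least 1 CPM. Genes named outside this rule are said to be so in the text, except Cct6a, Gm43890, Rn45s, markers and genes repeated between comparisons. Counts were fitted as deposited, and the cause of counts under 10 reads was not tested.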

Additional observations from a re-analysis of the deposited data

How the results depend on the processing

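Under 15 alternatives, Nupr1, Asns and Mthfd2 kept their calls in both comparisons with vehicle, with log2 fold changes from 0.82 to 1.23 in LPS and from 0.81 to 1.22 in SGA360+LPS. The count of the 10 genes called stayed from 4 to 5 in each comparison with vehicle and at 0 between SGA360+LPS and LPS. That count takes no account of direction or of which genes make it up. With library totals alone in LPS against vehicle, Phgdh lost its call (0.18) and Atf3 was called lower (−0.20). With 1 library left out, Atf3 ran from −0.117 to 0.015 in LPS against vehicle. Between SGA360+LPS and LPS, Nupr1 then ran from −0.061 to 0.094, Psph from −0.097 to 0.149 and Mthfd2 from −0.065 to 0.011; none of these was called, and the cause was not tested. Over all genes, leaving out 1 library gave 2091 to 5494 calls in LPS against vehicle (3413 with all), 1831 to 5315 in SGA360+LPS against vehicle (3107 with all) and 0 to 16 in SGA360+LPS against LPS (7 with all). In the last comparison no filter gave 17, DESeq2 11 and the 2 groups alone 12. The replicate number as a block gave 4, 0 and 4 calls among the 10 genes (the comparisons ordered as in the text), and 3434, 5 and 3136 over all genes. Same-numbered libraries deviated together with r = 0.198 for SGA360+LPS and LPS, 0.014 for SGA360+LPS and vehicle and −0.004 for LPS and vehicle, and the labels do not say that a number marks a shared animal or day. Under this block Shmt1 lost its call in SGA360+LPS against vehicle (adjusted p = 0.0607) and Aldh1l2 in LPS against vehicle (adjusted p = 0.0546). The Aldh1l2 call was not particular to the block. It was also lost in DESeq2 (adjusted p = 0.13), limma-voom (adjusted p = 0.0518), the 2 groups alone and library totals alone. The scaling by library totals was added after the data were seen. With a lone library in a group, its spread is assumed to be that of the others. Psph, at 261 to 334 reads, had the fewest reads and the widest intervals of the 6 tested genes; the part of depth was not tested.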
